A study of Drosophila melanogaster with 6 samples.

Results

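RNA-seq libraries of salivary glands (SGs) were examined for 10 genes of the *p53* pathway and of apoptosis, *p53*, *Corp*, *hid*, *rpr*, *grim*, *skl*, *Diap1*, *Dronc*, *Drice* and *Dark*. They were chosen by gene symbol, and all 10 are among the 23932 entries of the table. The SGs came from wandering larvae of the last larval stage (L3) of *Drosophila melanogaster*, from *de2f1b* mutants in 4 libraries (replicates 1 to 4) and from *w1118* controls in 2 libraries (replicates 1 and 4). The *de2f1b* mutation removes dE2F1b, a splice form of the cell cycle transcription factor dE2F1 that differs from the canonical form by a small exon, and *w1118* is the usual laboratory control strain. The labels do not give the combination of alleles that the *de2f1b* larvae of the libraries carried, and they call the replicates biological without saying how many larvae entered each library.

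In the fly, p53 is activated by kinases that sense DNA damage and switches on *rpr*, *hid* and *skl*, which with *grim* form the RHG group. The RHG proteins bind Diap1, a ubiquitin ligase that otherwise holds the initiator caspase Dronc and the effector caspase Drice in check, and freed Dronc is activated on the adaptor Dark, the fly counterpart of Apaf-1. SG cells grow by endoreplication, and endocycling cells of the fly are known to damp the apoptotic response to p53. The gland is later removed at metamorphosis, when the steroid hormone ecdysone induces *rpr* and *hid*. The study examined DNA damage in the mutant glands, and the comparison asks whether the transcripts of this pathway differ between *de2f1b* and *w1118* SGs.

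The unit throughout is the normalized count, which is the read count of a gene divided by the size factor of its library, and fold changes are *de2f1b* over *w1118*, as the log2 of the normalized count plus 1. The reads on genes numbered 56495956 to 86202639 in the *de2f1b* libraries and 78317269 and 94907006 in the *w1118* libraries. A count of 0 reads allows up to 3 reads, which is 2.35 to 4.11 normalized counts depending on the library, for counting error only. All 9 markers of the SG, the glue genes among them, had reads in every library. They summed to 1.61e+07, 1.87e+07, 7.83e+06 and 9.66e+06 in *de2f1b*, against 1.01e+07 and 1.94e+07 in *w1118*. The sums were lowest in *de2f1b* replicates 3 and 4. Every *de2f1b* library was below both controls for 2 of the 9, against 16% of all genes. Above both controls were 0 of the 9, against 17.4% of all genes. Markers of other tissues were also present and moved between libraries. The 8 ring gland markers summed to 7473, 8682, 16990 and 22637 in *de2f1b* replicates 1, 2, 3 and 4, against 4184 and 6461 in *w1118* replicates 1 and 4. Most of the sum in *de2f1b* replicates 1 and 2 and in both controls was 1 gene, *sro*. It had 7363, 8605, 4780 and 6197 in *de2f1b*, against 4132 and 6428 in *w1118*. The sums therefore understate how far *de2f1b* replicates 3 and 4 stood apart for other markers of this list. *sro* was named after its values had been seen. The 8 testis markers summed to 8621 in *de2f1b* replicate 3, against at most 196 in the other 5 libraries. In these bulk libraries fewer cells of a type and less RNA per cell cannot be told apart. The mutated gene itself, *E2f1*, had a normalized count of 12896, 10267, 9304 and 7190 in *de2f1b*, against 12544 and 18666 in *w1118*. The groups overlapped, and a count over the whole gene does not show whether the small exon is present.

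None of the 9 genes tested passed the test, and *grim* was too low to be tested. For *Corp* and *Dronc* every *de2f1b* library was above both controls, though *Corp* had a fold change below 0 under quantile normalization, and *Diap1* was lower in every *de2f1b* library. *p53*, *Drice* and *Dark* overlapped, with *de2f1b* means at 0.93, 1.14 and 0.979 times the *w1118* means, *hid* and *rpr* overlapped widely, and *grim* and *skl* had more than 10 reads only in *de2f1b* replicates 3 and 4. A gene was tested when 2 or more libraries reached a normalized count of 10, which left 11099 genes, 9 of the 10 among them, without *grim*. With limma at an adjusted p under 0.05, 0 of the 9 were called in either direction, where 3.17% of all genes tested were called higher in *de2f1b* and 1.07% lower. At an unadjusted p under 0.05, limma gave *Dronc* as the 1 gene higher and 0 lower, against 12.5% of all genes higher and 9.09% lower. All *de2f1b* libraries lay above both controls for 2 of the 9 genes, against 17.4% of all genes, and below both for 1 of the 9, against 16% of all genes. On the whole reads, edgeR called 0 of the 9 (2.59% of all genes) with 1 at an unadjusted p under 0.05, and DESeq2 called 0 of 10 (14.3% of all genes) with 3, *Dronc*, *Corp* and *Diap1*. The p-values measure the spread between these libraries, and only 2 of them are controls.

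**Figure D1:**
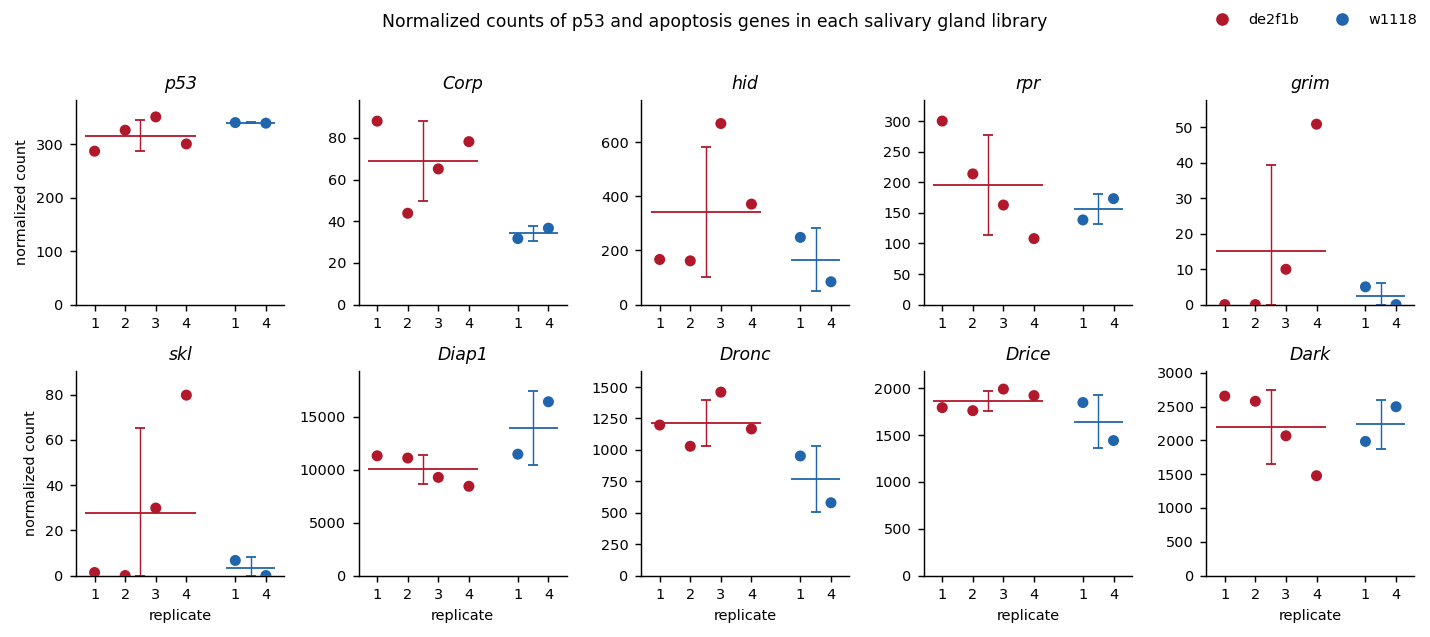
Normalized count of each gene (vertical axis, from 0) in every library, with *de2f1b* replicates 1 to 4 in red and *w1118* replicates 1 and 4 in blue. Horizontal lines are group means and error bars are 1 SD, drawn no lower than 0, and *Corp*, *Dronc* and *Diap1* are the genes whose groups are apart on this scale.

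Little spread is seen in the plot of single libraries for *p53* itself (FBgn0039044, chromosome 3R, 23049657 to 23054082 in BDGP6.54, 4 annotated transcripts), the transcription factor at the head of the pathway. It had a normalized count of 286.8, 326.0, 350.9 and 300.3 in *de2f1b* replicates 1, 2, 3 and 4, against 340.2 and 339.2 in *w1118* replicates 1 and 4. Replicate 3 of *de2f1b* was above both controls and the other 3 were below them. The mean was 316 ± 28.4 in *de2f1b* (SD, n = 4) and 339.7 ± 0.739 in *w1118* (SD, n = 2), a log2 fold change of −0.11 (SE 0.21, 95% interval −0.60 to 0.38, limma adjusted p = 0.778) that turned to 0.044 when all libraries were scaled to 1 total. The interval still allows a fall of 0.60 or a rise of 0.38 on the log2 scale.

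An antisense RNA gene, *asRNA:CR46089*, runs on the opposite strand over 38.0% of the exon bases of *p53*. Its normalized count was 338.8, 380.8, 265.0 and 251.0 in *de2f1b*, against 104.2 and 143.0 in *w1118*, and every *de2f1b* library was above both controls. With limma its log2 fold change was 1.31 (SE 0.29, adjusted p = 0.0642). Whether the reads were counted by strand is not given in the sources used here. The reads of the antisense gene and of *p53* over the shared bases may therefore not be told apart. The antisense gene was named after its values had been seen.

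*Corp* (FBgn0030028, chromosome X, 8269898 to 8271409), or companion of reaper, is a *p53* target whose product lowers p53 protein in the manner of mammalian Mdm2. It was counted at 88.0, 43.8, 65.1 and 78.2 in *de2f1b*, against 31.7 and 36.7 in *w1118*. Each *de2f1b* library was above both controls, with replicate 2 nearest to them. The means were 68.8 ± 19.1 in *de2f1b* (SD, n = 4) and 34.2 ± 3.52 in *w1118* (SD, n = 2), a log2 fold change of 0.95 (SE 0.44, 95% interval −0.10 to 1.99, limma adjusted p = 0.269), and quantile normalization turned it to −0.11. *Corp* was among the lowest of the 10 genes, and it had no value where a mean of at least 100 was required.

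The RHG genes *hid*, *grim*, *rpr* and *skl* lie in this order within 272.2 kb of chromosome 3L, all on the minus strand. *grim* starts 117.1 kb beyond the end of *hid*, *rpr* follows after a further 93.12 kb and *skl* after a further 40.12 kb. Although they are neighbours, their libraries of highest count were not the same. *rpr* was highest in *de2f1b* replicate 1, *hid* in replicate 3, and *grim* and *skl* in replicate 4.

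*rpr* (FBgn0011706, 18397535 to 18398435), or *reaper*, encodes a short IAP antagonist that responds both to p53 and to ecdysone. It had a normalized count of 300.1, 213.7, 162.8 and 107.9 in *de2f1b* replicates 1, 2, 3 and 4, against 138.4 and 173.2 in *w1118*. Replicates 1 and 2 of *de2f1b* were above both controls, replicate 3 was between them and replicate 4 was below them. Its log2 fold change was 0.24 (SE 0.44, 95% interval −0.81 to 1.29, limma adjusted p = 0.768), and it was −0.39 under quantile normalization. Without *de2f1b* replicates 3 and 4, the libraries with the highest ring gland markers, it was 0.71 with an adjusted p of 0.279, and without *de2f1b* replicate 1 it was 0.0055.

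*hid* (FBgn0003997, 18167745 to 18185641), or *head involution defective*, encodes the longest of the RHG proteins, which growth signalling through Ras and MAPK holds inactive. The 6 libraries had normalized counts of 166.7, 161.6, 669.2 and 371.4 in *de2f1b*, against 248.5 and 84.3 in *w1118*. *de2f1b* replicates 3 and 4 were the highest of all libraries, and replicates 1 and 2 lay between the controls. The highest library was 4.14-fold above the lowest among the *de2f1b* libraries and 2.95-fold among the controls. The log2 fold change of 0.98 (SE 0.72, 95% interval −0.74 to 2.69, limma adjusted p = 0.459) was 0.18 without *de2f1b* replicates 3 and 4, 0.20 without *w1118* replicate 4 and 1.75 without *w1118* replicate 1.

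*grim* (FBgn0015946, 18302719 to 18304417) and *skl* (FBgn0036786, 18438561 to 18439942), or *sickle*, encode the other RHG proteins and were close to the detection limit in most libraries. *grim* had 0, 0, 11 and 65 reads in *de2f1b* replicates 1, 2, 3 and 4, against 6 and 0 reads in *w1118* replicates 1 and 4, or normalized counts of 0, 0, 9.95 and 50.8 in *de2f1b*, against 5.0 and 0 in *w1118*. Only *de2f1b* replicate 4 reached the minimum of 10, so *grim* was not tested. *skl* had 1 or 0 reads in *de2f1b* replicates 1 and 2 and in *w1118* replicate 4, and 8 in *w1118* replicate 1, with normalized counts of 1.33, 0, 29.8 and 79.8 in *de2f1b*, against 6.67 and 0 in *w1118*. *de2f1b* replicates 3 and 4 were above the other 4 libraries for both genes, and *skl* entered the test only through them. Its log2 fold change was 1.66 (SE 2.02, 95% interval −3.19 to 6.50, limma adjusted p = 0.651), and it was 0.19 without *w1118* replicate 4, 3.13 without *w1118* replicate 1 and 2.7 without *de2f1b* replicate 2. Other annotated RNAs overlap *grim*, *asRNA:CR45974* on the opposite strand over 44.1% of its exon bases and *lncRNA:CR45975* on the same strand over 31.8%, and each had 0 reads in all 6 libraries. Both lie wholly within the exon of *grim*, and how reads shared by 2 genes were counted is not given in the sources used here. The 0 reads therefore do not show whether these RNAs were present. The counts of *grim*, also per kb, may lack reads over the shared bases.

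*hid*, *grim* and *skl* were high in *de2f1b* replicates 3 and 4, in which markers of some other tissues were high too. For 6 of the 8 ring gland markers, 6 of the 8 nervous system markers and 8 of the 8 muscle markers, *de2f1b* replicates 3 and 4 were both above the other 4 libraries. *phm*, which encodes an ecdysone synthesis enzyme of the ring gland, had a normalized count of 10.7, 6.85, 4061 and 4865 in *de2f1b*, against 3.34 and 0 in *w1118*. The muscle markers summed to 54474, 43653, 91346 and 159991 in *de2f1b* and to 47641 and 22187 in *w1118*, and the nervous system markers to 5509, 4857, 8310 and 9844 in *de2f1b* and to 5839 and 6875 in *w1118*. A large part of the nervous system sums was *Syt1*, named after its values had been seen. It had 3729, 3404, 3533 and 5887 in *de2f1b*, against 4488 and 5871 in *w1118*. Fat body and hemocyte markers did not follow this order, with 0 of 8 in either list above the other libraries in both replicates. The fat body markers summed to 4.82e+06, 4.57e+06, 3.10e+06 and 6.07e+06 in *de2f1b*, against 4.49e+06 and 4.89e+06 in *w1118*. In every library, controls included, this was the largest sum of the lists of other tissues. Both the fat body and the hemocyte sums were lowest in *de2f1b* replicate 3, where the hemocyte markers summed to 7127, against 7735 to 8842 in the other 5 libraries. The part of RNA from other tissues in the counts of *hid*, *grim* and *skl* was not tested. *de2f1b* replicate 3 was the highest library for all 8 testis markers, and by over 10-fold for 7 of them. Between *hid* and *grim* it also had 154.6 normalized counts on *CG5103* and 137.5 on *CG13700*, where every other library had at most 1.37. These 2 genes were named after their values had been seen. *grim*, close to both, was instead highest in *de2f1b* replicate 4.

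**Figure D2:**
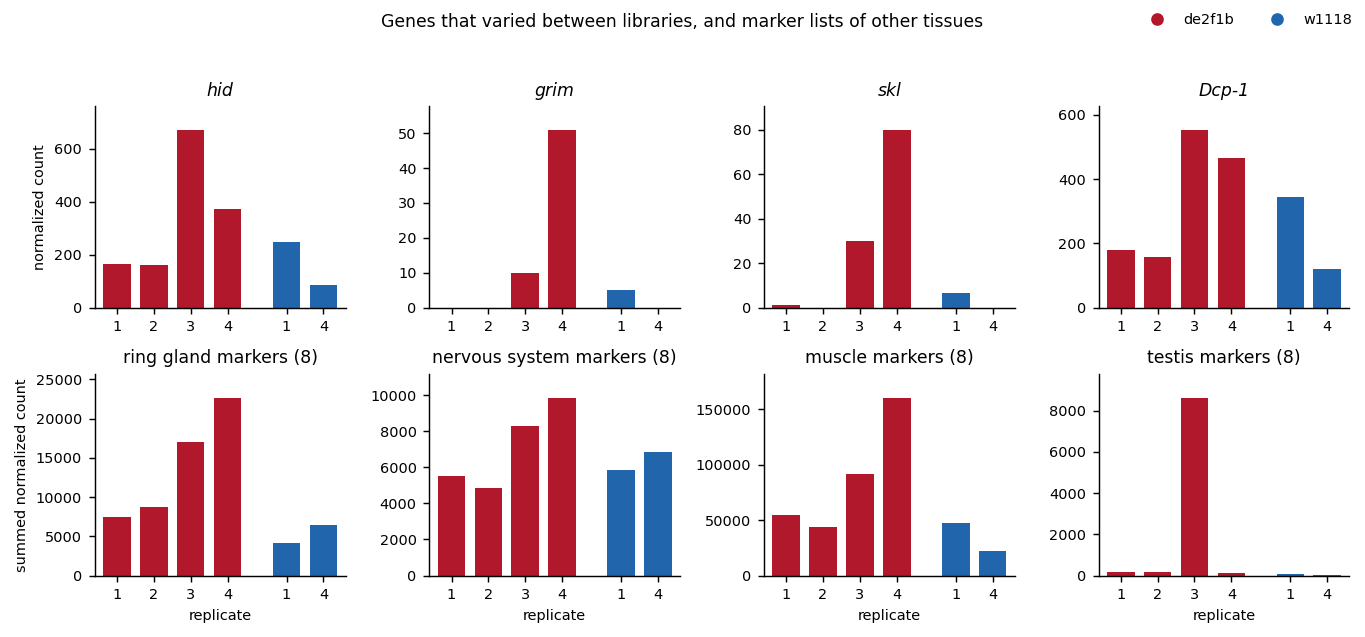
Normalized counts of *hid*, *grim*, *skl* and the effector caspase gene *Dcp-1* (upper panels) and summed normalized counts of 8 markers each of ring gland, nervous system, muscle and testis (lower panels), for *de2f1b* replicates 1 to 4 in red and *w1118* replicates 1 and 4 in blue, all axes from 0. The bars of *de2f1b* replicates 3 and 4 are the tallest in every panel except that of testis, where only replicate 3 stands out with 8621.

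The effector caspase gene *Dcp-1*, which is no member of the 10 and was picked after its values had been seen, had a like order. It had normalized counts of 180.1, 158.9, 552.6 and 465.3 in *de2f1b*, against 346.0 and 121.0 in *w1118*. As for *hid*, *de2f1b* replicates 3 and 4 were the highest libraries and the other 2 lay between the controls. Not all caspase genes had this order, and *Strica*, an initiator caspase gene also named after its values had been seen, was lowest in those libraries, at 2844, 2574, 1472 and 1348 in *de2f1b* against 2030 and 2390 in *w1118*.

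Counts were divided by exon length to set the levels of the genes side by side. Per kb of exon, the 4 RHG genes together had 375.5, 277.4, 374.7 and 299.9 normalized counts in *de2f1b*, against 223.2 and 213.3 in *w1118*. Every *de2f1b* library was above both controls, although the genes behind the sum differed. *rpr* made up 88.7%, 85.5%, 48.2% and 39.9% of the sum in *de2f1b* replicates 1, 2, 3 and 4, against 68.8% and 90.2% in *w1118*. In *de2f1b* replicates 1 and 2, where the ring gland marker *phm* was low, the sum was thus nearly all *rpr*. In replicates 3 and 4 most of it was not *rpr*, with *hid* at 44.5% in replicate 3 and *grim* and *skl* at 29.2% in replicate 4. The groups stayed apart when all libraries were scaled to 1 total, at 354.4, 250.8, 503.3 and 316.3 in *de2f1b* against 243.1 and 174.3 in *w1118*. Under quantile normalization, where *grim* has no value, the sum was 386.8, 327.1, 253.8 and 193.8 in *de2f1b* against 235.5 and 317.0 in *w1118*, and the groups overlapped. The sum was formed after the values of its genes had been seen, so it was not tested.

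**Figure D3:**
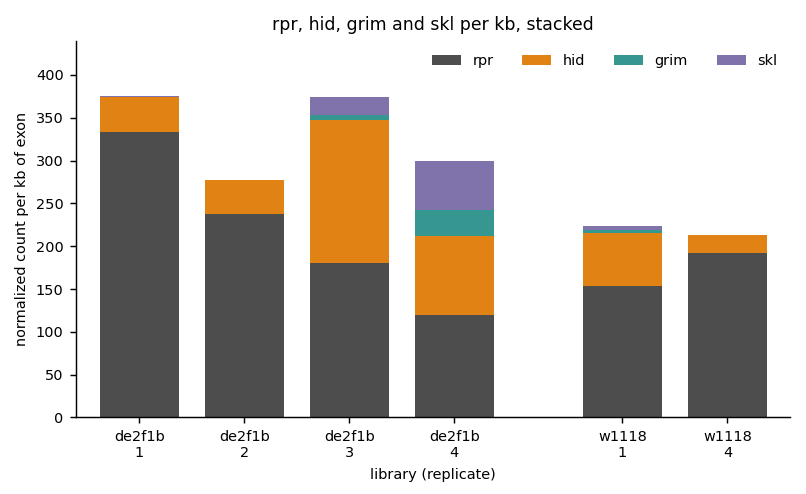
Normalized counts per kb of exon of *rpr*, *hid*, *grim* and *skl*, stacked, in *de2f1b* replicates 1 to 4 (left) and *w1118* replicates 1 and 4 (right). The *de2f1b* stacks reach 277.4 to 375.5 and the *w1118* stacks 213.3 and 223.2, groups that overlap under quantile normalization, and the part of *rpr* is the smallest in *de2f1b* replicate 4.

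*Diap1* (FBgn0260635, chromosome 3L, 16038410 to 16051034), the main inhibitor of apoptosis of the fly, had the highest counts of the 10 genes, also per kb of exon. The normalized counts were 11300, 11091, 9264 and 8426 in *de2f1b*, against 11454 and 16404 in *w1118*. All *de2f1b* libraries were below both controls, but replicate 1 was close to *w1118* replicate 1. In limma it had a log2 fold change of −0.46 (SE 0.21, 95% interval −0.96 to 0.039, adjusted p = 0.261). This was −0.20 without *w1118* replicate 4 and −0.72 without *w1118* replicate 1, so its size rested on which control was used. An antisense gene, *asRNA:CR45889*, overlaps 11% of the exon bases of *Diap1* and had a normalized count of 12.3 or less in every library.

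Set against the summed RHG genes per kb, *Diap1* stood at 9.57, 12.7, 7.87 and 8.94 times their level in *de2f1b*, against 16.3 and 24.5 times in *w1118*. All 4 *de2f1b* ratios were below both control ratios, while under quantile normalization they were 8.80, 10.4, 13.9 and 15.1 in *de2f1b* against 15.6 and 13.3 in *w1118* and overlapped. This ratio too was formed after the values had been seen, and it was not tested. It compares transcripts, and the balance of the proteins was not measured.

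*Dronc* (FBgn0026404, chromosome 3L, 9968479 to 9971002), the initiator caspase that Diap1 ubiquitinates, had the smallest unadjusted p of the 9 genes tested. Its normalized count was 1198, 1029, 1460 and 1167 in *de2f1b*, against 951.4 and 579.3 in *w1118*. Every *de2f1b* library was above both controls, and the means were 1213 ± 180.0 in *de2f1b* and 765.4 ± 263.1 in *w1118*. The fitted log2 fold change was 0.70 (SE 0.25, 95% interval 0.097 to 1.30, limma adjusted p = 0.184). It was 0.34 without *w1118* replicate 4 and 1.05 without *w1118* replicate 1. Over the 18 alternative settings the adjusted p of *Dronc* was between 0.106 and 0.828 and the fold change between 0.34 and 1.05, always above 0.

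*Drice* (FBgn0019972, chromosome 3R, 29799658 to 29801584), the main effector caspase, had a normalized count of 1793, 1760, 1991 and 1921 in *de2f1b*, against 1847 and 1441 in *w1118*. Replicates 3 and 4 of *de2f1b* were above both controls and the other 2 lay between them. The log2 fold change was 0.19 (SE 0.16, 95% interval −0.19 to 0.57, limma adjusted p = 0.505). It was 0.013 without *w1118* replicate 4 and 0.37 without *w1118* replicate 1.

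*Dark* (FBgn0263864, chromosome 2R, 17020027 to 17026703) encodes the adaptor of the apoptosome. It had a normalized count of 2654, 2578, 2066 and 1476 in *de2f1b*, against 1984 and 2497 in *w1118*, so that replicates 1 and 2 of *de2f1b* were above both controls and replicate 4 was below them. The log2 fold change was −0.06 (SE 0.27, 95% interval −0.70 to 0.59, limma adjusted p = 0.916). It was 0.094 with all libraries scaled to 1 total, 0.12 without *de2f1b* replicate 4, 0.11 without *w1118* replicate 4 and 0.23 without *de2f1b* replicates 3 and 4. An antisense gene, *asRNA:CR44390*, covers 56.9% of the exon bases of *Dark*, with 288.1, 167.1, 139.3 and 77.4 normalized counts in *de2f1b* and 135.9 and 56.8 in *w1118*. As for *grim*, the counts of *Dark*, also per kb, may lack reads over the shared bases.

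**Figure D4:**
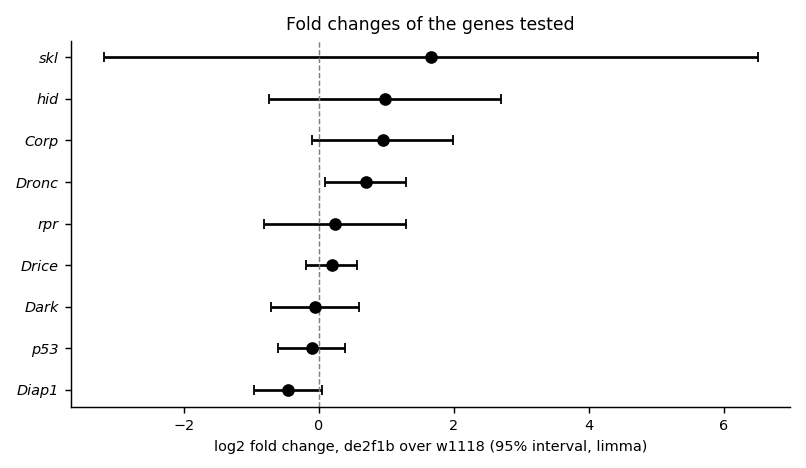
Log2 fold change of *de2f1b* over *w1118* (horizontal axis) for the 9 genes tested, with 95% intervals from limma, ordered by fold change. Among the 9, only the interval of *Dronc*, 0.097 to 1.30, does not include 0, that of *skl* runs from −3.19 to 6.50, and the signs of *p53*, *Dark*, *Corp* and *rpr* changed under another scaling.

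In the plot of fold changes the intervals of *Drice*, *p53* and *Diap1* were the narrowest and that of *skl* the widest. Over the 9 genes the median was 0.24, against 0.023 over all genes tested, and it was −0.042 under quantile normalization. With all libraries scaled to 1 total it was 0.62, but *grim* had a value there too. *grim* had more than 10 reads only in *de2f1b* replicates 3 and 4. Among the 9 genes without *grim*, the middle value with 1 total was 0.39, that of *rpr*.

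The order of the levels per kb was similar in the 2 genotypes. In *de2f1b* it was *Diap1* (mean 3188 normalized counts per kb), *Drice* (968.4), *Dronc* (602.1), *Dark* (449.3), *rpr* (217.7), *p53* (147.9), *hid* (85.2), *Corp* (56.6), *skl* (20.1) and *grim* (8.94). Of the neighbours in this order, *Diap1* and *Drice*, and *Drice* and *Dronc*, had ranges over the 4 libraries that were apart. The ranges of all later neighbours overlapped, although within each single *de2f1b* library *Dark* was above *rpr* and *Corp* above *skl*. In *w1118* the order began with *Diap1* (4432) and *Drice* (853.1), then *Dark* (458.8) before *Dronc* (379.8), and ended in the same 6 genes, from *rpr* (173.0) to *grim* (1.47). There the neighbours *Dark* and *Dronc*, *rpr* and *p53*, *hid* and *Corp*, and *skl* and *grim* overlapped. Within each genotype the lowest library of *Diap1*, *Drice* or *Dronc* was above the highest library of any RHG gene, at 510.5 per kb for *Dronc* against 333.1 for *rpr* in *de2f1b*, and at 287.5 against 192.3 in *w1118*. The exons of *p53*, *grim*, *Diap1* and *Dark* overlap other annotated genes. Their levels per kb may lack reads over the shared bases, so their places in these orders are uncertain.

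The wider pathway was described with 9 lists by role, written from general knowledge. Apart from the 10 genes they hold 51 genes, all of which were tested. Of these, limma and edgeR each called 0 higher and 1 lower in *de2f1b*, and DESeq2 called 8 of 50 (16%, against 14.3% of all genes). At an unadjusted p under 0.05, limma gave 7 of the 51 higher (13.7%, against 12.5% of all genes) and 4 lower (7.84%, against 9.09%). All *de2f1b* libraries were above both controls for 7 of the 51 (13.7%, against 17.4%) and below for 6 (11.8%, against 16%). These shares were near or below those of all genes tested, and the median log2 fold change was −0.04. Calls in the lists are those of limma unless another tool is named. Of the 9 list medians, only those of the caspases and of the Hippo pathway kept their sign under all 18 alternative settings, so the medians are given with their ranges over these settings. Not every gene of a list had a value under each setting.

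The 1 gene called was *Cyt-c-p* (FBgn0284248, chromosome 2L), the cytochrome c gene that serves mitochondrial respiration in most tissues of the fly. It had a normalized count of 3176, 3666, 2697 and 3287 in *de2f1b*, against 6474 and 7245 in *w1118*. Every *de2f1b* library was well below both controls. With limma the log2 fold change was −1.10 (SE 0.16, 95% interval −1.49 to −0.72, adjusted p = 0.0194), and edgeR and DESeq2 gave −1.07 and −1.10. Without *de2f1b* replicate 1 the adjusted p was 0.0703, without *w1118* replicate 1 it was 0.0796 and without *w1118* replicate 4 it was 0.194. It stands in the list of apoptosome and Bcl-2 genes, of which 0 of 6 were called higher and 1 lower, against 1.07% of all genes called lower. Of the 6, 2 had a limma unadjusted p under 0.05, both lower, against 9.09% of all genes lower, and the median was −0.15 (−0.43 to 0.11).

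Among the 7 caspase genes, 0 were called, and 2 had a limma unadjusted p under 0.05, both higher, against 12.5% of all genes higher. The median log2 fold change was 0.51 (0.25 to 0.67). It was 0.28 without *de2f1b* replicate 3, 0.31 without *de2f1b* replicate 4, 0.27 without *w1118* replicate 4 and 0.25 under quantile normalization. The 2 genes with an unadjusted p under 0.05 were *Dronc* and *Damm*, a caspase gene with 47, 4, 41 and 24 reads in *de2f1b*, against 4 and 1 in *w1118*. In normalized counts *Damm* had 62.7, 5.48, 37.1 and 18.8 in *de2f1b*, against 3.34 and 0.917 in *w1118*, with replicate 2 of *de2f1b* near the controls. It entered the test only through *de2f1b* replicates 1, 3 and 4, so a gene this low in the controls could be tested only if it was higher in *de2f1b*. Its log2 fold change was 3.03 (SE 1.06, limma adjusted p = 0.172), and DESeq2 called it. *Decay*, an effector caspase gene, was at 0.58 (SE 0.40, limma adjusted p = 0.437) and at 0.31 without *de2f1b* replicate 4.

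Of the 4 genes of the IAP and BIR domain family, 0 were called and the median was −0.11 (−0.23 to 0.046). After *Diap1*, *Bruce* and *Det* had log2 fold changes of 0.11 and −0.21, and the sign of each changed when 1 control was left out. Of the 6 IAP antagonists 5 were tested and limma called 0, with a median of 0.24 (−0.15 to 0.73) that was 0.0055 without *de2f1b* replicate 1. The upper end, 0.73, was with all libraries scaled to 1 total, where *grim* had a value too. Among the 5 genes without *grim*, the middle value there was 0.39, that of *rpr*. *Jafrac2*, a peroxiredoxin of the endoplasmic reticulum that can bind Diap1, had a normalized count of 5163, 6208, 3563 and 4575 in *de2f1b*, against 7809 and 10401 in *w1118*. All *de2f1b* libraries were below both controls, with a log2 fold change of −0.91 (SE 0.25, limma adjusted p = 0.105), which limma called once all libraries had 1 total (adjusted p = 0.031), as did DESeq2 (adjusted p = 0.0147).

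The 10 genes known to be induced through p53 after irradiation, 4 of them among the 10 genes above, gave 0 calls with limma and a median log2 fold change of 0.21 (−0.050 to 0.36), while DESeq2 called *RnrL* lower. At a limma unadjusted p under 0.05, 1 was higher and 1 lower, against 12.5% and 9.09% of all genes. The higher was *egr*, the TNF ligand of the fly, with a normalized count of 2322, 1937, 1906 and 3205 in *de2f1b*, against 1253 and 1628 in *w1118* (log2 fold change 0.68, SE 0.25, limma adjusted p = 0.194). The lower was *RnrL*, the large subunit of ribonucleotide reductase, with 3807, 3777, 3816 and 3278 in *de2f1b*, against 4585 and 6166 in *w1118* (−0.54, SE 0.17, limma adjusted p = 0.137). Both had groups that did not overlap. The fold change of *RnrL* was −0.32 when *w1118* replicate 4 was left out.

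Upstream of *p53*, 0 of 6 kinases and mediators of the damage response were called, and the median was −0.015 (−0.18 to 0.14). *tefu*, the fly ATM kinase, had a log2 fold change of −0.45 (limma adjusted p = 0.405), and of −0.27 without *de2f1b* replicate 1. *grp*, the fly Chk1, was at 0.064 and *lok*, the fly Chk2 that phosphorylates p53, at 0.18, and both signs changed when *de2f1b* replicate 3 was left out, that of *lok* also under quantile normalization. The normalized count of *lok* was 161.4, 204.1, 694.6 and 410.5 in *de2f1b*, against 397.7 and 190.7 in *w1118*. Here too *de2f1b* replicates 3 and 4 were the highest libraries.

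Of 9 ecdysone response genes and gland factors that act on death genes in the SG, limma called 0 and the median was −0.12 (−0.36 to 0.25). *ftz-f1*, a nuclear receptor that makes the gland competent to die, had a normalized count of 550.9, 437.0, 690.0 and 493.4 in *de2f1b*, against 297.7 and 257.6 in *w1118*. Every *de2f1b* library was above both controls (log2 fold change 0.95, SE 0.24, limma adjusted p = 0.0922), and DESeq2 called it. *Eip93F*, which drives the death of the gland in the pupa, had 52.0, 41.1, 388.9 and 184.6 in *de2f1b*, against 19.2 and 5.50 in *w1118* (3.30, SE 1.03, limma adjusted p = 0.14), was again highest in replicates 3 and 4 and was also called by DESeq2. Without those 2 libraries its log2 fold change was 2.04. *usp*, which encodes the partner of the ecdysone receptor, was at −0.41 (limma adjusted p = 0.389) and at −0.13 without *w1118* replicate 4.

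The Hippo pathway, whose effector Yki induces *Diap1*, gave 0 calls among 6 genes and a median of −0.16 (−0.31 to −0.0081). The list pools *yki* with genes that restrain it, so the sign of its median gives no direction for *Diap1*. *yki*, *sav* and *hpo* had log2 fold changes of −0.41, −0.51 and −0.18, and their groups overlapped. Without *w1118* replicate 4 *yki* was at −0.13 and *sav* at −0.12, and without *de2f1b* replicate 4 *hpo* was at −0.097. Of 9 genes of apoptotic nucleases, of the DNA fragmentation factor family and of engulfment, limma called 0 and the median was 0.13 (−0.079 to 0.32). At a limma unadjusted p under 0.05, 3 of these 9 genes were higher and 0 lower, against 12.5% and 9.09% of all genes. They were *Drep1*, *Drep2* and *Drep3*, 3 of the 4 genes of the DNA fragmentation factor family. Not every gene of this family encodes an active nuclease, and the list did not separate them by function. The other gene of that family, *Drep4*, had its groups apart in the opposite direction. *Drep4* had 1299, 1262, 889.0 and 715.5 normalized counts in *de2f1b*, against 1327 and 1956 in *w1118* (log2 fold change −0.67, SE 0.31, limma adjusted p = 0.264). *EndoG*, a nuclease of the mitochondrion, was also below both controls in every *de2f1b* library (−0.49, SE 0.23, limma adjusted p = 0.279), and *Drep4* and *EndoG* were named after their values had been seen. *Drep2* had 68.0, 43.8, 226.1 and 138.4 normalized counts in *de2f1b*, against 14.2 and 9.17 in *w1118* (log2 fold change 3.00, SE 0.72, limma adjusted p = 0.0779). *Drep1* was at 0.88 (limma adjusted p = 0.141). *Drep3*, with only 12, 18, 43 and 48 reads in *de2f1b* against 12 and 10 in *w1118*, was at 1.44 (limma adjusted p = 0.228), which was 0.30 under quantile normalization. DESeq2 called *Drep2* and *Drep1*. For these 3 genes every *de2f1b* library was above both controls, and *Drep2* was highest in replicates 3 and 4, the libraries with the highest nervous system and ring gland markers. The part of that RNA in its counts was not tested.

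**Figure D5:**
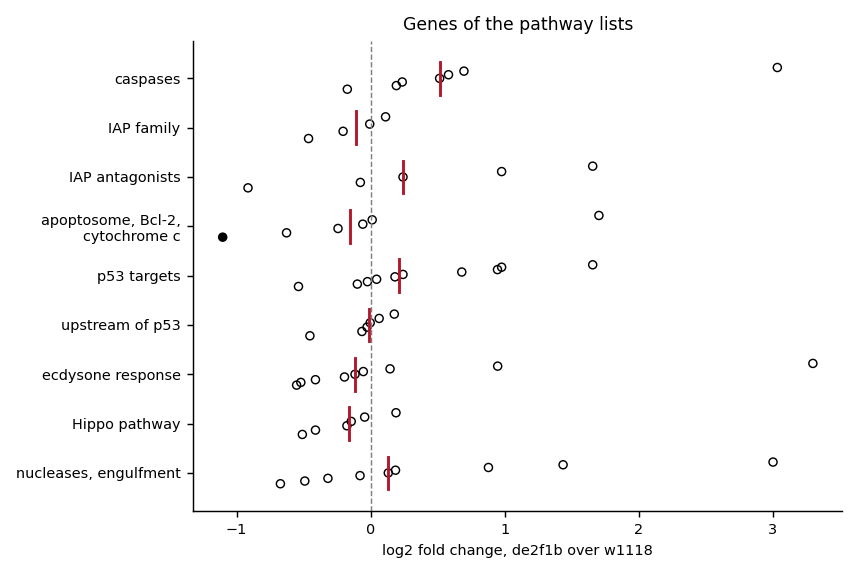
Log2 fold change of *de2f1b* over *w1118* (horizontal axis) for each gene tested in the 9 lists (circles, 1 line a list), with the list median as a red bar. The 1 filled circle is *Cyt-c-p* at −1.10, the gene called by limma, and the list medians run from −0.16 to 0.51.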

How the data were processed

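SG RNA of L3 larvae was sequenced in paired-end reads. Per the submitters' processing notes, quality was checked with FastQC 0.11.8, reads were aligned to BDGP6 with STAR 2.7.6a and counted on genes with featureCounts 1.6.0, and genotypes were compared with DESeq2. The deposited value of a gene in a library is a signal, made by the authors by dividing its read count by 1 size factor per library. Divided by the value of 1 read, 100% of the values of each library came out whole (tolerance 0.01 read), so whole reads were recovered. The authors also deposited means over libraries, log2 fold changes, standard errors, test statistics and p-values of their own comparison, which were not used.

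The test, for the 11099 genes that reached a normalized count of 10 in 2 or more libraries, was limma 3.58.1 (R 4.3.3) with a trend, on log2 values after adding 1. This scale understates the change of low genes. Genotype was the only term, p-values were two-sided, and Benjamini-Hochberg adjustment was over all genes tested, with a threshold of 0.05. Tried in turn were a pseudocount of 0.5 or 10, no filter, a mean of at least 100, scaling to the same total, by median of ratios or by quantiles, no trend, a block for the replicate number, each library or *de2f1b* replicates 3 and 4 left out, and, on the recovered reads, edgeR 4.0.16 and DESeq2 1.42.0. The scripts were tested on simulated data.

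Positions, exon lengths and overlaps are from Ensembl release 115 (BDGP6.54), matched by gene ID. The 10 genes and the lists were chosen with earlier results of these data known. The genes named were the 10, in each list every gene called or else the 3 with the smallest unadjusted p, *phm* and *E2f1*, and others are marked as chosen after their values were seen. Promoter and protein sequences were not analysed here. Tables and plots were made in Python 3.11.15 with Matplotlib 3.10.9, NumPy 2.4.6 and pandas 2.3.3.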

Additional observations from a re-analysis of the deposited data

Results flagged for a closer look

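In 1 of 32 genes examined, *RnrL*, 1 of the 4 *de2f1b* libraries stood apart from the others, where chance gives about 1.6 such genes. *RnrL* had a normalized count of 3278 in *de2f1b* replicate 4, against 3777 to 3816 in the other *de2f1b* libraries, a gap of 0.931 of the whole range, which exceeds Dixon's 95% limit. None of the 10 genes of the *p53* pathway and apoptosis stood apart in this way.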

How the results depend on the processing

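Of the 10 genes, 0 were called under any of the 18 alternatives. The log2 fold changes of *hid*, *Diap1*, *Dronc* and *Drice* kept their sign under all 18. *skl* had a value under 14 of them, always above 0, but none when *de2f1b* replicate 3 or 4 was left out. All its values thus include the 2 libraries in which it was high, so its constant sign is no sign of stability. Among other signs, that of *p53* turned to 0.044 with all libraries scaled to 1 total, those of *Corp*, *rpr* and *lok* to −0.11, −0.39 and −0.10 under quantile normalization, and that of *Dark* to 0.094 with 1 total, 0.12 without *de2f1b* replicate 4, 0.11 without *w1118* replicate 4 and 0.23 without *de2f1b* replicates 3 and 4. With 1 library left out, *Bruce* lay between −0.22 (without *w1118* replicate 1) and 0.44, *Det* between −0.54 and 0.16 (above 0 without *de2f1b* replicate 1 or *w1118* replicate 1), *grp* between −0.010 (without *de2f1b* replicate 3) and 0.11, *lok* between −0.35 (without *w1118* replicate 4) and 0.71, and *Dark* between −0.22 and 0.12. *Det* was at 0.027 with edgeR, and *grp* and *lok* were at −0.028 and −0.60 without *de2f1b* replicates 3 and 4. In each case the cause was not tested. Scaling to 1 total moved the median of all genes by 0.15 and quantile normalization by −0.09.

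Limma called 352 genes higher and 119 lower. The genes higher numbered 208 with no filter, 201 with quantile normalization, 198 with edgeR, 1100 with DESeq2, and 72 to 242 with 1 library left out, and the genes lower 71 with no filter, 617 with DESeq2 and 5 to 68 with 1 library left out. Of the genes called, 74.7% were higher, against 62.6% with quantile normalization, 64.1% with DESeq2, and 85.5% and 93.5% without *w1118* replicate 1 and 4. Of the 51 other genes in the lists, 0 were higher and 1 lower, DESeq2 called 5 higher and 3 lower, 16% of those it tested against 14.3% of all genes, and with 1 library left out 0 to 1 were lower.

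The replicate numbers 1 and 4 occur in both genotypes. The deviations of same-numbered libraries from their group means correlated at −0.323 and −0.359 across genes. With only 2 controls, the deviations of 1 control mirror those of the other. These correlations therefore cannot show whether same-numbered libraries share more than a number. With the replicate block 5 genes were called higher and 2 lower, 0 of the 10 genes and 0 of the lists, and *grp* and *lok* were at −0.0265 and −0.10. A mean of at least 100 left no value for *Corp* and *skl*. With 2 controls, and *grim* and *skl* at 0 to 8 reads in 4 libraries, the values of these 2 genes rest on few reads.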
